A study of Mus musculus with 39 samples.

Results

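The genes described here are 8 interferon gamma induced GTPases of the mouse. They comprise 4 immunity-related GTPases (Igtp, Irgm1, Irgm2 and Iigp1) and 4 guanylate-binding proteins (Gbp2, Gbp3, Gbp5 and Gbp7). A gene was taken by a probe set annotated to its symbol alone, and the probe set with the highest mean was used where there were several. This gave 7 of the 8 genes, among 22180 genes measured in this way. Gbp2 has no probe set of its own on this array. A probe set annotated to both Gbp2 and its neighbour Gbp2b is described separately and is not counted among the 7. The probe sets are 17249980 for Igtp, 17262202 for Irgm1, 17249990 for Irgm2, 17350925 for Iigp1, 17403237 for Gbp3, 17403205 for Gbp5 and 17403224 for Gbp7.

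The genes were followed through 39 arrays, 1 per mouse, in a mouse model of t(8;21) acute myeloid leukaemia. The miR-126KO+AE9a arm carried AE9a, a leukaemogenic splice form of the AML1-ETO fusion, together with a knockout of the microRNA miR-126. The AE9a+miR-126 arm carried AE9a with added miR-126, and the AE9a arm carried AE9a with neither change, so that AE9a is common to all leukaemia groups. Each arm was passed through recipient mice 4 times, with 3 mice sampled at each of passages 1 to 4, and 3 normal controls (NC) came from the first passage. Bone marrow of sick recipients was sorted for CD45.1, which marks transplanted donor cells, and total RNA was taken from the sorted cells. The sort takes any donor-derived blood cell, leukaemic or not. The sources used here give no strain, age, vector, promoter or donor of each recipient.

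Interferons reach cells through receptors coupled to JAK kinases. Interferon gamma acts mainly on genes with gamma-activated sites, whereas type I interferons act mainly on genes with interferon-stimulated response elements. Both families of GTPases described here are strongly induced by interferon gamma and attack the membranes of vacuoles that hold intracellular pathogens. In normal marrow, interferon gamma comes chiefly from T and NK cells, and it is known to act on blood stem and progenitor cells as well as on myeloid cells.

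Promoter sequences are shown because both kinds of interferon site can be read in them. RefSeq windows of GRCm38.p6, running from 250 bases before to 50 bases after each annotated start, were at hand for 7 of the 8 genes (Igtp, Irgm1, Irgm2, Gbp2, Gbp3, Gbp5 and Gbp7). They were searched on both strands for GAAANNGAAA, a form of the interferon-stimulated response element, and for TTCNNNGAA, the gamma-activated site. The first motif was present in all 7 of these promoters, against 3.443% of all 32851 windows. The second was present in 4 of them (Igtp, Irgm2, Gbp5 and Gbp7), against 8.298% of all windows, and 0.454% of all windows held both. The stretches below run 5′ to 3′ on the gene's own strand and end at the base before the start, and capitals mark the motif matches:
Igtp: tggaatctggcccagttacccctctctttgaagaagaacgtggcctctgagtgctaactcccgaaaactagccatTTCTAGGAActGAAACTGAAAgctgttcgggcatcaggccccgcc
Irgm2: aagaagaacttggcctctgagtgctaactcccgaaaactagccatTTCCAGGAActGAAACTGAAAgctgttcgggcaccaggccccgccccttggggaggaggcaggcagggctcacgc
Irgm1: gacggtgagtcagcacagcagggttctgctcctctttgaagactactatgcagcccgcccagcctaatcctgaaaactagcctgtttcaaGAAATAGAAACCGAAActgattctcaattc
Gbp7: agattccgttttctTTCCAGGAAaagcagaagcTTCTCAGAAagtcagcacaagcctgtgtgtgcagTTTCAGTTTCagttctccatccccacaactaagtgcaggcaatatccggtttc
Gbp3: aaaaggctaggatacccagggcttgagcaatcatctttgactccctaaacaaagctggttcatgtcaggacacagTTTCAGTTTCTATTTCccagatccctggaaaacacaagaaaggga
Gbp2: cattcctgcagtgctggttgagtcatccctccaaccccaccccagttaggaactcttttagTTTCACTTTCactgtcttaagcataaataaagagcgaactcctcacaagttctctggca
Gbp5: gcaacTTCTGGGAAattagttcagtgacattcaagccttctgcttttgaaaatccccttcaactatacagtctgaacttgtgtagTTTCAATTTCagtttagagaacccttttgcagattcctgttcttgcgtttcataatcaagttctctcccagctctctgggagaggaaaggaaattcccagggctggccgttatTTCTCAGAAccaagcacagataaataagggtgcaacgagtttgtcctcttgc

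These stretches lie at chr11:58199436-58199555 on the plus strand for Igtp, chr11:58214857-58214976 on the plus strand for Irgm2 and chr11:48871421-48871540 on the minus strand for Irgm1. On chromosome 3 they lie on the plus strand at chr3:142530216-142530335 for Gbp7, chr3:142559924-142560043 for Gbp3, chr3:142620543-142620662 for Gbp2 and chr3:142496684-142496933 for Gbp5. In Igtp the gamma-activated site starts 45 bases before the annotated start and the response element follows it at 34 bases before the start. Irgm2, the next gene of the family on the chromosome, has the same pair at 75 and 64 bases before its start. Of the 120 bases printed for Igtp, 103 were the same in the window of Irgm2 at a shift of 30 bases, which runs past the stretch printed for Irgm2. Over the whole overlap of both windows at that shift, 184 of 270 bases were the same. No other pair of windows was compared. Irgm1 and Gbp3 each held overlapping copies of the response element and no match to the other motif. Gbp5 stood apart in having its response element 165 bases before the start, with gamma-activated sites at 245 and at 52 bases. A match describes these letters only and does not show binding.

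**Figure D1:**
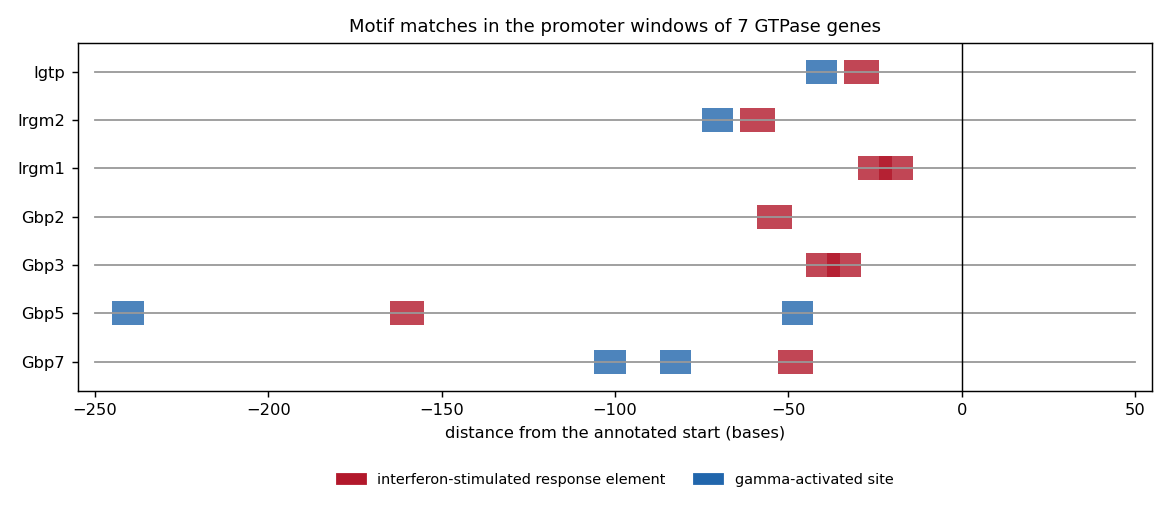
Positions of motif matches in the promoter windows of 7 GTPase genes, in bases from the annotated start (0, vertical line). Red boxes are interferon-stimulated response elements and blue boxes gamma-activated sites; all 7 genes hold a red box, and Igtp, Irgm2, Gbp5 and Gbp7 also hold a blue one.

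All values are the authors' deposited log2 expression values, made with RMA, where 1 unit is a doubling; an array's number of samples, not its depth, limits the precision. The array has 1 probe set for miR-126, shared by Mir126a with Egfl7, the gene that hosts it. It lay between 2.77 and 3.15 in miR-126KO+AE9a mice, between 5.90 and 11.56 in AE9a+miR-126 mice, between 2.76 and 3.04 in AE9a mice and between 2.97 and 3.88 in normal controls. This sets the arm with added miR-126 apart and, being as low in AE9a as in the knockout arm, does not check the knockout. The spread of values differed between arrays, and 8 of the 39 arrays had an SD over probe sets below 1.8, 7 of them AE9a+miR-126 arrays of passages 2 to 4. Without those arrays AE9a+miR-126 keeps only replicate 3 at passage 2, no array at passage 3 and only replicate 3 at passage 4. Counts of calls in that arm after passage 1 are therefore not given for that setting.

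Over the 13 groups the 7 genes moved by different amounts. The span between the lowest and the highest group mean was 3.34 for Gbp5, 2.77 for Igtp, 2.77 for Irgm2, 2.65 for Iigp1, 2.18 for Irgm1, 2.03 for Gbp7 and 1.25 for Gbp3, all on the log2 scale. Igtp, Irgm1, Irgm2 and Gbp7 had miR-126KO+AE9a passage 1 and AE9a passage 4 as their 2 highest groups. Gbp5 was highest in AE9a+miR-126 and miR-126KO+AE9a at passage 1, and Iigp1 was highest in AE9a at passage 4. When the 13 groups were put in order of their means, every one of the 12 neighbouring pairs overlapped in single mice for each of the 7 genes. The order therefore does not set a group apart from its neighbours, and distant groups were not compared in this way.

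Igtp, a regulatory member that keeps the effector GTPases in check until they load onto vacuoles, averaged 8.13 ± 0.59, 5.80 ± 0.33, 7.48 ± 0.64 and 6.48 ± 0.39 at passages 1 to 4 of miR-126KO+AE9a (SD, n = 3 each). In AE9a+miR-126 it averaged 6.44 ± 0.16, 5.94 ± 1.30, 6.03 ± 1.02 and 6.36 ± 0.12 at the same passages. In AE9a it averaged 5.89 ± 0.51, 6.48 ± 0.22, 7.14 ± 0.77 and 8.57 ± 1.11, and in normal controls 6.88 ± 0.48. The AE9a means stood in passage order, whereas in the knockout arm the levels at passages 1 and 3 were above those at passages 2 and 4.

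Irgm1, a regulatory member that helps to protect the cell's own membranes and is needed for blood stem cell function in infected mice, averaged 7.81 ± 0.55 at passage 1, 7.39 ± 0.26 at passage 3 and 6.51 ± 0.36 at passage 4 of miR-126KO+AE9a, with 6.89, 5.14 and 5.99 in the mice of passage 2. Irgm2, the remaining regulatory member, averaged 9.01 ± 0.37, 6.24 ± 0.73, 7.91 ± 0.98 and 7.31 ± 0.31 in that arm. In AE9a, Irgm1 averaged 5.62 ± 0.36, 6.71 ± 0.22, 6.95 ± 0.64 and 7.58 ± 0.83, and Irgm2 6.93 ± 0.31, 7.35 ± 0.39, 7.94 ± 0.72 and 8.25 ± 0.84. In both arms these 2 genes had the pattern of Igtp. In normal controls Irgm1 averaged 6.21 ± 0.22 and Irgm2 8.01 ± 0.16, so the control level lay near the low end of the groups for Irgm1 and near the high end for Irgm2.

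Iigp1, an effector that coats vacuoles, averaged 4.64 ± 0.40 in normal controls and stood out in a few leukaemia mice. Its means were 5.18 ± 1.28, 5.40 ± 0.50, 5.26 ± 0.25 and 4.82 ± 0.15 in miR-126KO+AE9a, 4.54 ± 0.36, 4.84 ± 0.13, 5.80 ± 0.19 and 5.33 ± 0.69 in AE9a+miR-126, and 4.70 ± 0.22, 4.91 ± 0.52, 5.27 ± 0.56 and 7.20 ± 1.54 in AE9a. The mice with the highest values were AE9a passage 4 replicates 3 and 2, at 8.28 and 7.87, and miR-126KO+AE9a passage 1 replicate 2, at 6.65.

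Of the guanylate-binding proteins, Gbp7 averaged 8.77 ± 0.17, 8.08 ± 0.41, 8.29 ± 0.53 and 7.89 ± 0.46 in miR-126KO+AE9a, against 7.14 ± 0.53, 7.58 ± 0.05, 7.78 ± 0.98 and 8.62 ± 0.70 in AE9a. Gbp5, known in the mouse for promoting inflammasome assembly, averaged 7.50 ± 0.44 at passage 1 and 5.26 ± 0.21 at passage 4 of miR-126KO+AE9a, 7.89 ± 0.89 and 4.55 ± 0.35 in AE9a+miR-126, 5.95 ± 0.61 and 6.30 ± 0.50 in AE9a, and 4.90 ± 0.23 in normal controls. Gbp3, which like Gbp7 coats pathogen vacuoles in mouse cells, had group means between 6.10 and 7.35, the narrowest range of the 7.

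**Figure D2:**
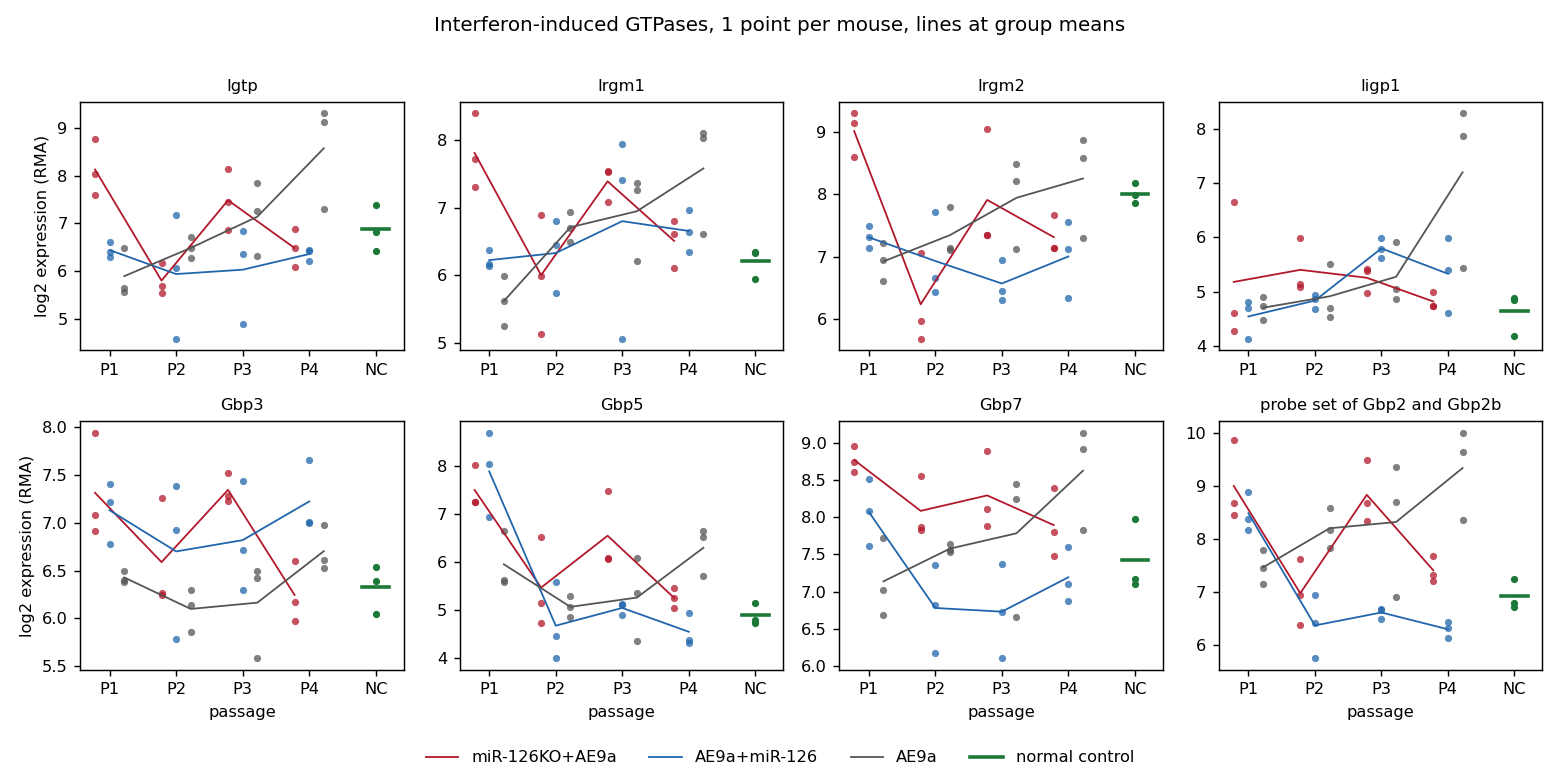
Log2 expression (RMA) of each GTPase gene by passage, with 1 point per mouse, lines through group means, and normal controls (NC) at the right of each panel. Red is miR-126KO+AE9a, blue AE9a+miR-126, grey AE9a and green normal control; Igtp, Irgm1 and Irgm2 have red highest at passage 1 and grey highest at passage 4.

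At passage 1, 3 of the 4 immunity-related GTPases and Gbp7 were higher in knockout leukaemia than in AE9a leukaemia. Of the 7 genes 4 rose and 0 fell (Irgm2, Irgm1, Igtp and Gbp7), and 2.09% of all genes passed in this comparison, 1.50% as rises. The median difference of the 7 was 1.63, against -0.01 over all genes, and all 7 were positive. A gene passed at a limma p under 0.05 after Benjamini-Hochberg adjustment over the 22180 genes, and a ± after a difference is its standard error. Whether groups overlapped in single mice is given for named genes as a description. The share of all genes whose groups were apart was not counted.

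Igtp measured 8.02, 8.76 and 7.60 in the 3 miR-126KO+AE9a mice of passage 1, against 5.56, 5.64 and 6.48 in the 3 AE9a mice. Every knockout mouse lay above every AE9a mouse, and the difference was 2.23 ± 0.53 (4.70-fold, adjusted p = 0.0178). Irgm1 measured 7.71, 8.39 and 7.31 in miR-126KO+AE9a, against 5.62, 5.26 and 5.99 in AE9a, a difference of 2.18 ± 0.49 (4.54-fold, adjusted p = 0.0127). Irgm2 measured 9.14, 9.30 and 8.60 in miR-126KO+AE9a, against 6.60, 6.95 and 7.22 in AE9a, a difference of 2.09 ± 0.44 (4.25-fold, adjusted p = 0.00708). For both genes the groups were again apart, by more than the range within either group.

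Gbp7 measured 8.74, 8.95 and 8.61 in miR-126KO+AE9a at passage 1, against 6.69, 7.02 and 7.71 in AE9a, and rose by 1.63 ± 0.41 (3.09-fold, adjusted p = 0.0308). Gbp5 differed by 1.55 ± 0.47 (adjusted p = 0.0826) and Gbp3 by 0.89 ± 0.34 (adjusted p = 0.217), without overlap between the groups and without passing. Iigp1 measured 4.61, 6.65 and 4.28 in miR-126KO+AE9a, against 4.90, 4.47 and 4.74 in AE9a, and differed by 0.47 ± 0.51 with groups that overlapped. Only miR-126KO+AE9a replicate 2, at 6.65, lay above the AE9a mice.

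The calls at passage 1 did not hold without certain single mice, and leaving out a mouse also makes its group smaller. Without AE9a replicate 1, or without miR-126KO+AE9a replicate 1 or replicate 2, the limma fit called 0 of the 7, and without AE9a replicate 2 it called 1. The differences themselves moved less, between 1.92 and 2.53 for Igtp, between 1.89 and 2.43 for Irgm1, between 1.93 and 2.29 for Irgm2 and between 1.40 and 1.91 for Gbp7 over all settings run. Their highest adjusted p values over those settings were 0.166, 0.125, 0.0644 and 0.19 for Igtp, Irgm1, Irgm2 and Gbp7.

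Among other genes of the 2 GTPase families, Gbp2b, beside Gbp2 and Gbp3 on chromosome 3, and Gm12250, an immunity-related GTPase next to Igtp on chromosome 11, rose in knockout leukaemia at passage 1. Gbp2b measured 5.91, 7.62 and 6.90 in miR-126KO+AE9a, against 5.20, 4.91 and 4.84 in AE9a (1.83 ± 0.26, adjusted p = 9.99e-05). Gm12250 differed by 2.54 ± 0.43 (adjusted p = 0.000952). These were 2 of the 11 further family genes measured, and 0 of the 11 fell. Gbp4, Gbp6, Gbp8, Gbp9, Gbp10 and Gbp11, the 6 guanylate-binding proteins of the chromosome 5 cluster, differed by between -0.16 and 0.89; limma called 0 of the 6, and 0 were below 0.05 unadjusted.

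Genes of the type I interferon response rose in the same comparison, 12 of 16 with 0 falling and a median of 2.32. Mx1 and Mx2, antiviral dynamin-like GTPases, rose by 3.17 ± 0.37 and 3.15 ± 0.39, and Oas2, which makes the activator of RNase L, by 3.55 ± 0.44. The sensor Zbp1 rose by 2.57 ± 0.39. Of 9 transcription factors 3 rose, Irf7 (2.17 ± 0.36), Stat2 (1.74 ± 0.37) and Irf9 (1.12 ± 0.24), of which Stat2 and Irf9 are known to act in type I interferon signalling. Irf1, the factor most tied to interferon gamma, differed by 0.19 ± 0.46.

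Interferon genes themselves did not pass at passage 1. Of 11 ligand genes, made up of interferons and the interleukin genes Il12a, Il12b and Il18, limma called 0, with 2 below 0.05 unadjusted. Ifng measured 5.18, 5.10 and 4.84 in miR-126KO+AE9a and 4.96, 5.07 and 4.96 in AE9a, low values that overlapped. Of 7 receptor and kinase genes limma called 0, with 2 below 0.05 unadjusted. Of 7 inhibitors 2 rose: Usp18, which holds back type I receptor signalling, by 3.86 ± 0.48, and Socs1, which blocks JAK kinases, by 1.41 ± 0.28. Of 19 interferon gamma targets outside the GTPases 2 rose, the chemokine Cxcl11 (1.57 ± 0.33) and the peptide transporter Tap1 (1.26 ± 0.32), and of 13 partner genes at vacuoles, mostly of autophagy, limma called 0, with 1 below 0.05 unadjusted.

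Cell type markers at passage 1 differed as follows. T and NK cell markers had 0 of 12 called by limma and 0 below 0.05 unadjusted, with summed log2 levels of 59.38 to 60.72 in miR-126KO+AE9a and 61.66 to 63.62 in AE9a, so the knockout mice were not higher. Of 11 monocyte and macrophage markers 3 rose, Fcgr1 (3.99 ± 0.45), Ccr2 (2.16 ± 0.37) and Vcan (2.71 ± 0.54), with summed levels of 98.31 to 101.58 in miR-126KO+AE9a and 83.44 to 87.07 in AE9a. Fcgr1 is itself known to respond to interferon gamma. Of 10 neutrophil markers 1 fell (S100a9, by 2.12 on the log2 scale), with summed levels of 89.19 to 110.51 in miR-126KO+AE9a and 115.23 to 116.20 in AE9a. Of 6 erythroid markers 1 rose, Car1 (4.28 ± 0.69, adjusted p = 0.000504), and 4 were below 0.05 unadjusted, with summed levels of 39.17 to 45.61 in miR-126KO+AE9a and 31.78 to 32.28 in AE9a. Of 7 B cell markers limma called 0, with 6 below 0.05 unadjusted and summed levels of 38.04 to 41.76 in miR-126KO+AE9a and 45.31 to 49.28 in AE9a. In such sorted mixtures, fewer cells of a type and less RNA per cell cannot be told apart, and the part of these cell types in the GTPase differences was not tested.

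At passages 2 and 3, limma called 0 of the 7 between the knockout arm and AE9a, while 3.99% and 1.05% of all genes passed; at the unadjusted threshold of 0.05 the counts were 1 and 2 of the 7. At passage 2, Irgm2 measured 7.07, 5.97 and 5.68 in miR-126KO+AE9a, against 7.79, 7.11 and 7.13 in AE9a, a difference of -1.11 ± 0.44 (adjusted p = 0.157) in the direction opposite to passage 1. Without miR-126KO+AE9a replicate 1 of passage 2, 1 gene was called at that passage, and without arrays of low spread 1 was called at passage 3. At passage 3, Gbp3 measured 7.52, 7.28 and 7.23 in miR-126KO+AE9a, against 5.58, 6.49 and 6.42 in AE9a, a difference of 1.18 ± 0.34 (adjusted p = 0.0909).

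At passage 4, Igtp and Iigp1 were lower in knockout leukaemia than in AE9a leukaemia, a direction opposite to that of the calls at passage 1. Of the 7 genes 2 fell (Igtp and Iigp1) and 0 rose, with 1.33% of all genes called. All 7 differences were negative, with a median of -1.04, against 0.04 over all genes.

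Igtp measured 6.48, 6.09 and 6.88 in miR-126KO+AE9a at passage 4, against 7.29, 9.11 and 9.31 in AE9a, a difference of -2.09 ± 0.53 (adjusted p = 0.0352). Iigp1 measured 4.99, 4.73 and 4.74 in miR-126KO+AE9a, against 5.43, 7.87 and 8.28 in AE9a, a difference of -2.38 ± 0.51 (adjusted p = 0.00987). In both genes AE9a replicates 2 and 3 were far above replicate 1, which still lay above all knockout mice. The count was 0 without AE9a replicate 2 or replicate 3 or without miR-126KO+AE9a replicate 3, 1 without miR-126KO+AE9a replicate 1 or 2, 0 in a fit of these 2 groups alone, and 1 where genes below the median level were left out, since Iigp1 is such a gene.

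Other GTPases, Ifng and T cell genes were lower in knockout leukaemia in the same comparison. Of the 11 further family genes 5 fell and 0 rose, among them Gbp4 (-3.02 ± 0.51), Gbp8 (-2.31 ± 0.43) and Gm4951 (-3.14 ± 0.74). Ifng measured 4.88, 4.90 and 4.88 in miR-126KO+AE9a, against 5.37, 6.53 and 6.47 in AE9a (-1.24 ± 0.21, adjusted p = 0.000949). Of 12 T and NK markers 7 fell, with Cd3g at -4.27 ± 0.50, Cd3e at -3.19 ± 0.41 and Gzmb at -3.77 ± 0.49, and of 19 interferon gamma targets Cxcl9 alone fell (-1.86 ± 0.45). Of 16 type I response genes limma called 0, with 1 below 0.05 unadjusted. Markers of other cell types differed as well. The monocyte and macrophage marker Cx3cr1 (1.54 ± 0.32) and the erythroid marker Car1 (2.77 ± 0.69) were higher in knockout leukaemia. Vcam1, a marker of endothelium and stroma, was lower (-1.08 ± 0.28). The part of T cells and of these other cells in the GTPase differences was not tested.

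The 5 genes that did not pass differed by -1.07 ± 0.49 (Irgm1), -1.04 ± 0.47 (Gbp5), -0.94 ± 0.44 (Irgm2), -0.73 ± 0.41 (Gbp7) and -0.46 ± 0.34 (Gbp3). Averaged over the 4 passages with equal weight, limma called 0 of the 7 between the knockout arm and AE9a, with 8.17% of all genes called and 3 of the 7 below 0.05 unadjusted. Igtp averaged a difference of -0.05 ± 0.26, a value in which the opposite signs of passages 1 and 4 cancel. The largest were Gbp5 (0.55 ± 0.23), Gbp3 (0.52 ± 0.17, adjusted p = 0.0502) and Gbp7 (0.48 ± 0.21). Without passage 4 the average called 3 of the 7, and 1 was called under 6 other settings and without any one of 6 single arrays (miR-126KO+AE9a passage 1 replicate 3, passage 2 replicates 2 and 3 and passage 4 replicate 2, and AE9a passage 3 replicates 2 and 3).

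**Figure D3:**
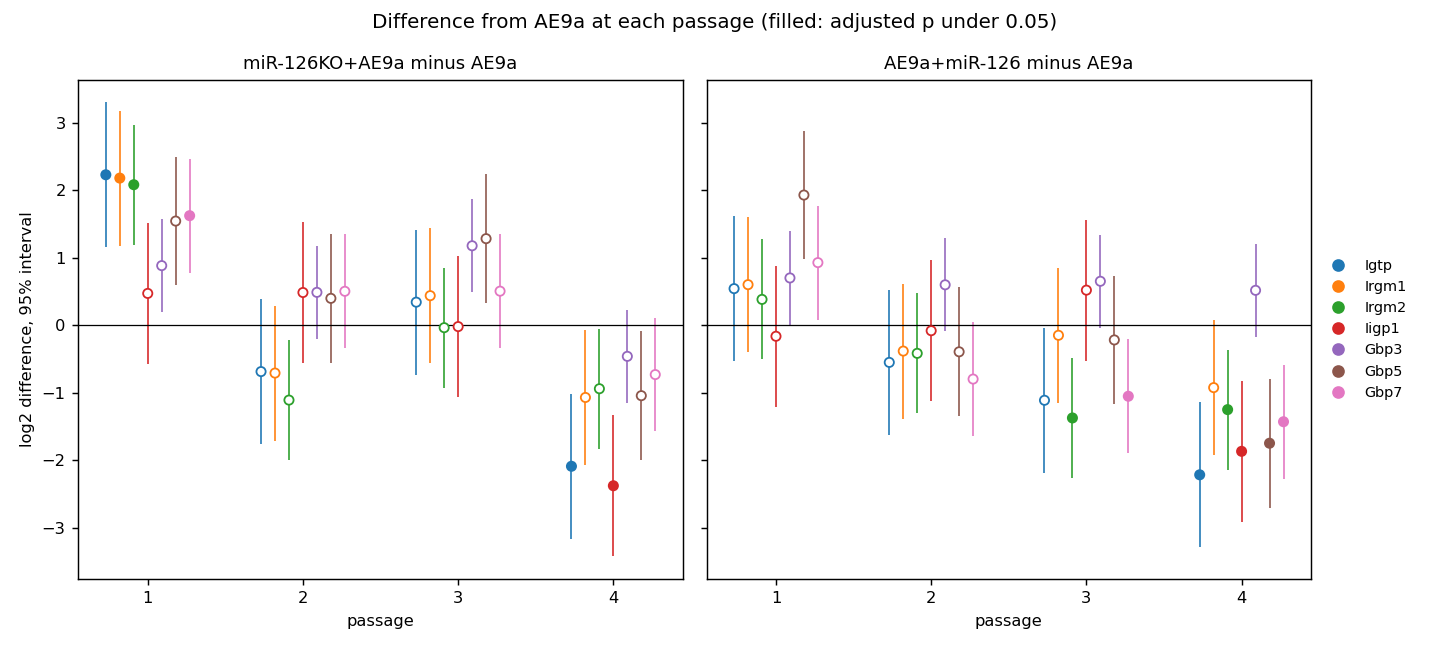
Log2 difference from AE9a at each passage (vertical axis; bars are 95% intervals from the model) for miR-126KO+AE9a (left) and AE9a+miR-126 (right), with filled points where the adjusted p was under 0.05. On the left, Igtp stands at 2.23 at passage 1 and -2.09 at passage 4; on the right, 5 of the 7 genes are filled and below 0 at passage 4.

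The change across passages within AE9a was upward. Comparing passage 4 with passage 1 of AE9a, 4 of the 7 genes rose (Igtp, Iigp1, Irgm1 and Gbp7) and 0 fell, with 2.94% of all genes called, and the median difference was 1.48, against -0.05 over all genes. Igtp measured 7.29, 9.11 and 9.31 at passage 4, against 5.56, 5.64 and 6.48 at passage 1, a difference of 2.68 ± 0.53 (6.40-fold, adjusted p = 0.00278). Iigp1 rose by 2.49 ± 0.51 (adjusted p = 0.00417), Irgm1 by 1.96 ± 0.49 (adjusted p = 0.0215) and Gbp7 by 1.48 ± 0.41 (adjusted p = 0.0432). Irgm2 differed by 1.33 ± 0.44 (adjusted p = 0.0971), Gbp5 by 0.34 ± 0.47 and Gbp3 by 0.28 ± 0.34.

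Igtp passed in every setting run of this comparison, with differences between 2.31 and 3.32. The count of 4 became 2 without AE9a passage 1 replicate 1 or 2, 2 without passage 4 replicate 2, 1 without passage 4 replicate 3, and 2 in a fit of these 2 groups alone.

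Of the 11 further genes of both families that were measured, 7 rose as well and 0 fell. Within the chromosome 5 cluster, Gbp8 (3.03 ± 0.43), Gbp4 (2.78 ± 0.51), Gbp9 (2.42 ± 0.48), Gbp10 (1.34 ± 0.21) and Gbp11 (0.89 ± 0.20) rose and Gbp6 differed by -0.07. Gm4951, the neighbour of Iigp1 on chromosome 18, rose by 3.59 ± 0.74 and Gm12250 by 1.92 ± 0.43, whereas Gbp2b, one of those that rose in knockout leukaemia at passage 1, differed by 0.33 ± 0.26. Gbp4 measured 5.17, 8.27 and 8.14 at passage 4, against 4.26, 4.33 and 4.64 at passage 1, so that replicates 2 and 3 were again high.

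The AE9a mice of passage 4 also had more Ifng transcript than those of passage 1. Ifng measured 5.37, 6.53 and 6.47 at passage 4, against 4.96, 5.07 and 4.96 at passage 1, and rose by 1.12 ± 0.21 (adjusted p = 0.00205), the 1 ligand of 11 that passed. Irf1 rose by 1.71 ± 0.46 (adjusted p = 0.0372) and Irf7 by 1.45 ± 0.36, 2 of 9 transcription factors. Of 19 interferon gamma targets 4 rose: the chemokine Cxcl9, which is induced chiefly by interferon gamma (2.70 ± 0.45), Tap1 (1.81 ± 0.32) and the immunoproteasome subunits Psmb9 (1.48 ± 0.35) and Psmb8 (0.91 ± 0.26). The inhibitor Socs1 rose (1.42 ± 0.28), whereas the kinase gene Jak2 fell (-0.88 ± 0.22, adjusted p = 0.0221). Type I response genes had 3 of 16 past the threshold, Zbp1 (2.53 ± 0.39), Oas2 (2.58 ± 0.44) and Rtp4 (1.87 ± 0.53), with a median of 0.20. Whether the 2 settings differ in their share of type I and gamma genes was not tested, and both comparisons use the same AE9a passage 1 arrays.

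Markers of cytotoxic T cells rose in the same comparison. Of 12 T and NK cell markers 6 rose in AE9a at passage 4 against passage 1 and 0 fell, among them the granule proteins Gzmb (3.89 ± 0.49) and Prf1 (2.31 ± 0.31) and the T cell genes Cd3g (2.66 ± 0.50), Cd8a (2.51 ± 0.38) and Cd3e (2.25 ± 0.41). Gzmb measured 7.21, 9.08 and 9.10 at passage 4, against 4.64, 4.85 and 4.24 at passage 1. The summed log2 level of the 12 markers was between 57.86 and 58.77 in miR-126KO+AE9a at passage 4, between 58.20 and 61.96 in AE9a+miR-126 at passage 4, 70.14, 83.69 and 81.01 in AE9a replicates 1 to 3 of passage 4, between 61.66 and 63.62 in AE9a at passage 1 and between 66.73 and 75.02 in normal controls. AE9a replicates 2 and 3, highest in this sum, were also highest in Ifng, Igtp, Iigp1 and Gbp4. RMA gives no true 0, so none of these markers is listed at 0 in any group, and the part of T cells in the GTPase levels was not tested.

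Monocyte and macrophage markers rose as well, 3 of 11 with 0 falling: C1qb (3.93 ± 0.67), C1qc (2.67 ± 0.52) and Fcgr1 (2.48 ± 0.45). Their summed level was 96.94 to 104.40 at passage 4 and 83.44 to 87.07 at passage 1 of AE9a. Of 10 neutrophil markers limma called 0, with 1 below 0.05 unadjusted, and their median differed by -0.30. Of 6 erythroid markers 2 rose, Car1 (3.57 ± 0.69) and Rhag (2.78 ± 0.71), with summed levels of 35.06 to 51.09 at passage 4 and 31.78 to 32.28 at passage 1. Of 7 B cell markers 1 fell, Ebf1 (-1.60 ± 0.43). The part of these cells in the GTPase levels was not tested.

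**Figure D4:**
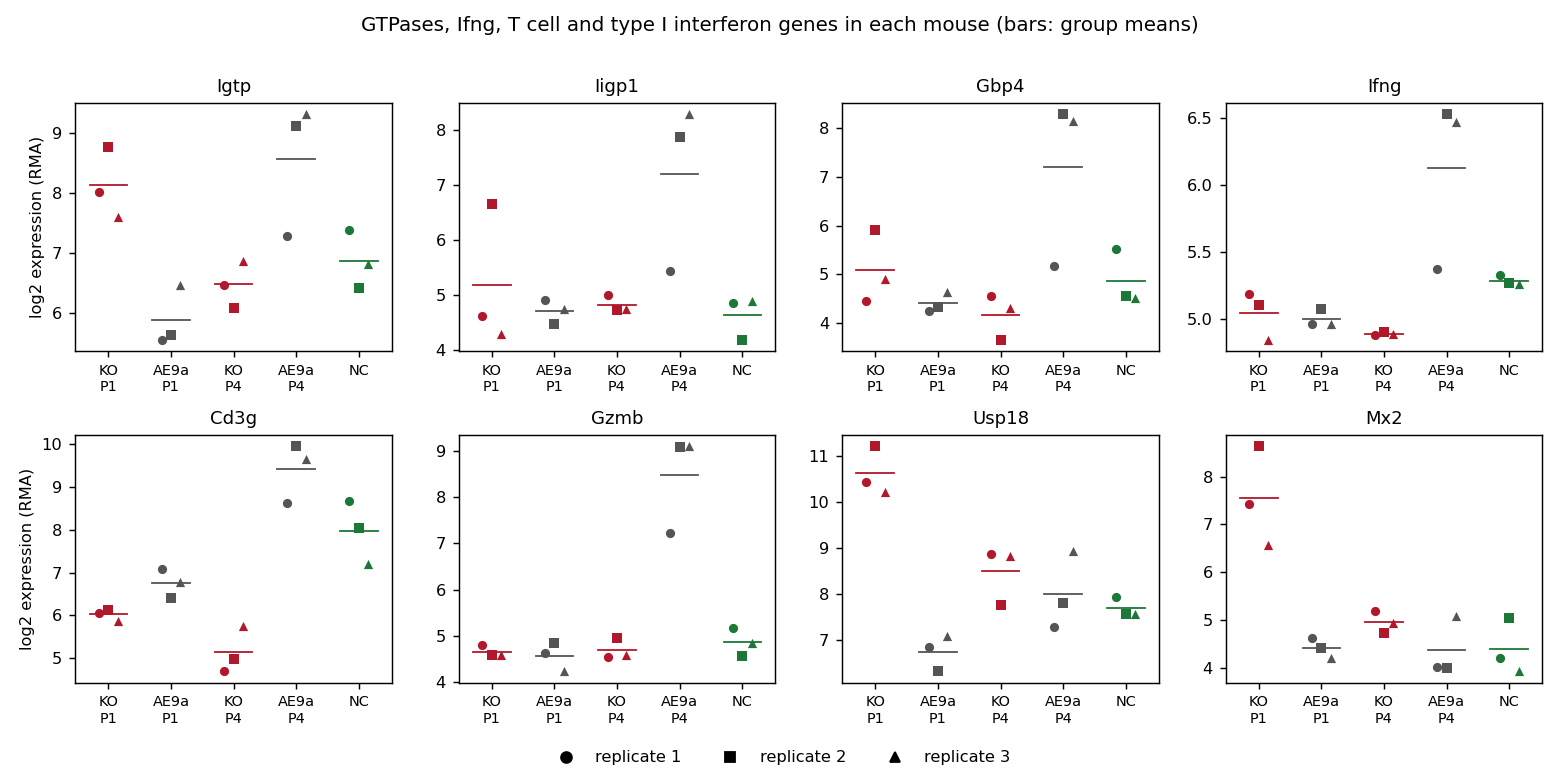
Log2 expression (RMA) of 3 GTPases, Ifng, T cell genes (Cd3g, Gzmb) and type I interferon genes (Usp18, Mx2) in single mice of miR-126KO+AE9a (KO) and AE9a at passages 1 and 4 and of normal controls (NC); bars are group means and symbols give the replicate. Ifng, Gzmb and Gbp4 are high in AE9a passage 4 replicates 2 and 3, whereas Usp18 and Mx2 are high in all 3 KO mice of passage 1.

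Within knockout leukaemia the change across passages was downward. Comparing passage 4 with passage 1, 2 of the 7 genes fell (Gbp5 and Irgm2) and 0 rose, with 4.04% of all genes called, and all 7 differences were negative with a median of -1.30. Gbp5 measured 5.05, 5.25 and 5.47 at passage 4, against 7.24, 8.01 and 7.25 at passage 1, a difference of -2.25 ± 0.47 (adjusted p = 0.00288). Irgm2 measured 7.14, 7.13 and 7.67 at passage 4, against 9.14, 9.30 and 8.60 at passage 1, a difference of -1.70 ± 0.44 (adjusted p = 0.0182). The groups were apart for these and also for Igtp (-1.64 ± 0.53, adjusted p = 0.0773), Irgm1 (-1.30 ± 0.49), Gbp3 (-1.07 ± 0.34) and Gbp7 (-0.87 ± 0.41), which did not pass.

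Gbp5 passed in every setting run of this comparison. The count of 2 became 4 in a fit of these 2 groups alone, after cyclic loess and without genes below the median level, 5 without arrays of low spread, and 1 without replicate 1 or 2 of either passage. Type I response genes fell with the GTPases, 9 of 16, among them Mx2 (-2.60 ± 0.39), Mx1 (-2.33 ± 0.37) and Ifit1 (-4.24 ± 0.69). Usp18 fell as well (-2.13 ± 0.48), as did Socs1 (-1.46 ± 0.28). The chemokines Cxcl10 (-3.29 ± 0.57) and Cxcl11 (-2.40 ± 0.33) fell, 2 of 19 interferon gamma targets. Receptor and kinase genes moved both ways. Jak2 (-0.97 ± 0.22) and Ifnar1 (-1.12 ± 0.30) fell, whereas the interferon gamma receptor gene Ifngr1 rose (1.23 ± 0.35, adjusted p = 0.0373). T and NK markers had 0 of 12 called by limma and 0 below 0.05 unadjusted, with a median of -0.06.

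The change of the knockout difference between passages was tested directly, as the difference from AE9a at passage 4 minus that at passage 1. Of the 7 genes 3 were lower (Igtp, Irgm2 and Irgm1), where 0.428% of all genes passed, 95 of 22180. All 7 estimates were negative, with a median of -2.85, against 0.04 over all genes. Igtp moved by -4.32 ± 0.74 (adjusted p = 0.00321), Irgm1 by -3.25 ± 0.69 (adjusted p = 0.021) and Irgm2 by -3.02 ± 0.62 (adjusted p = 0.0154). Iigp1 (-2.85 ± 0.72), Gbp5 (-2.59 ± 0.66), Gbp7 (-2.36 ± 0.58) and Gbp3 (-1.34 ± 0.48) had adjusted p values of 0.0793, 0.0832, 0.0665 and 0.354. This comparison is built from the same 12 arrays as the 2 above and is not separate evidence.

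Igtp passed in every setting run of this change, with values between -4.96 and -3.95. The count was 1 without any one of AE9a passage 1 replicate 1, AE9a passage 4 replicates 2 or 3, miR-126KO+AE9a passage 1 replicate 2 or passage 4 replicate 2, and 6 without AE9a passage 4 replicate 1. It was 5 in a fit of the 4 groups alone. Genes that passed beside them were Socs1 (-2.88 ± 0.40), Usp18 (-3.38 ± 0.68), Zbp1 (-3.20 ± 0.55), Fcgr1 (-3.92 ± 0.64), Gbp2b (-2.12 ± 0.37), Gm12250 (-3.48 ± 0.61) and Gbp4 (-3.70 ± 0.72). Of the T and NK markers 5 of 12 also passed and were lower, with Prf1 at -2.56 ± 0.45 and Gzmb at -3.86 ± 0.69, and Ifng at -1.28 ± 0.30 was the 1 ligand of 11.

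**Figure D5:**
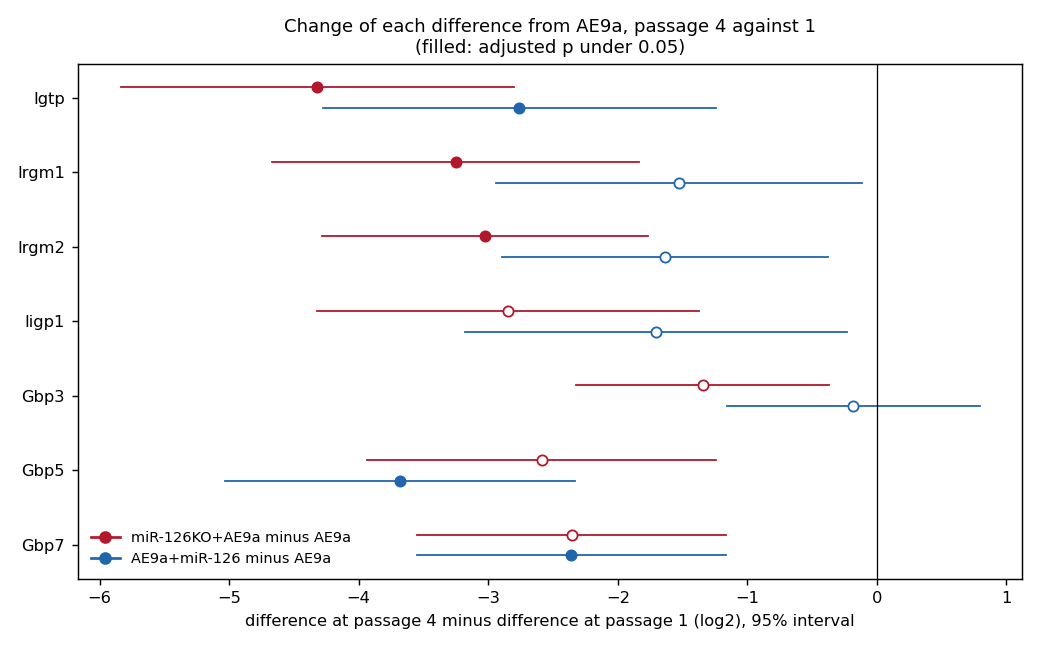
Change of each gene's log2 difference from AE9a, passage 4 minus passage 1 (horizontal axis; bars are 95% intervals), for miR-126KO+AE9a (red) and AE9a+miR-126 (blue), with filled points where the adjusted p was under 0.05. All 14 points lie below 0, from -4.32 for Igtp in the knockout arm to -0.18 for Gbp3 in the arm with added miR-126.

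With added miR-126, Gbp5 was the GTPase that stood out at passage 1. It measured 6.93, 8.69 and 8.03 in AE9a+miR-126, against 5.62, 5.59 and 6.66 in AE9a, a difference of 1.93 ± 0.47 (adjusted p = 0.219). The groups were apart, yet limma called 0 of the 7 genes, and 0.0316% of all genes, in this comparison; 3 of the 7 were below 0.05 unadjusted (Gbp5, Gbp7 and Gbp3). Without AE9a+miR-126 replicate 1 of passage 1, 1 gene was called. Igtp, Irgm1 and Irgm2 differed by 0.55 ± 0.53, 0.60 ± 0.49 and 0.39 ± 0.44.

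At passage 2, limma called 0 of the 7 with 8.85% of all genes called and 0 of the 7 below 0.05 unadjusted, and 1 was called without AE9a+miR-126 replicate 3. At passage 3, Irgm2 (-1.37 ± 0.44) and Gbp7 (-1.05 ± 0.41) fell, 2 of 7 beside 52.2% of all genes. All 3 AE9a+miR-126 arrays of passage 3 had a low spread, so that comparison has no value without such arrays. At passage 3 the count was 0 when array SD entered the model and 1 after cyclic loess normalization, where neither Irgm2 nor Gbp7 kept its call. It was 1 in a fit of the 2 groups alone, 0 without AE9a replicate 3, and 1 without AE9a replicate 2 or AE9a+miR-126 replicate 1 or 3.

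At passage 4, 5 of the 7 genes were lower in AE9a+miR-126 than in AE9a and 0 were higher, beside 24.7% of all genes called. Igtp measured 6.42, 6.22 and 6.44 in AE9a+miR-126, against 7.29, 9.11 and 9.31 in AE9a, a difference of -2.21 ± 0.53 (adjusted p = 0.00339). Gbp5 measured 4.95, 4.32 and 4.39 in AE9a+miR-126, against 5.72, 6.53 and 6.65 in AE9a, a difference of -1.75 ± 0.47 (adjusted p = 0.00844). Both genes had groups that did not overlap. Iigp1 (-1.87 ± 0.51), Gbp7 (-1.43 ± 0.41) and Irgm2 (-1.25 ± 0.44) fell as well, Irgm1 differed by -0.92 ± 0.49, and Gbp3 stood on the other side at 0.52 ± 0.34 (adjusted p = 0.241). The count was 2 without AE9a replicate 2 or 3, 2 in a fit of the 2 groups alone and 3 without AE9a+miR-126 replicate 1. It was 3 after cyclic loess and 2 when array SD entered the model.

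At passage 4 genes of the interferon pathway differed in both directions between AE9a+miR-126 and AE9a, and the counts stand beside the 24.7% of all genes called. Of 7 receptor and kinase genes 4 fell against AE9a, with Jak2, the kinase bound to the interferon gamma receptor, at -2.47 ± 0.22, Jak1 at -0.83 ± 0.15 and the receptor chain Ifngr2 at -1.24 ± 0.26. Of 16 type I response genes 8 fell, with Zbp1 at -2.67 ± 0.39, and of 19 interferon gamma targets 6 fell, with the class II genes H2-Aa at -5.91 ± 0.62 and H2-Ab1 at -5.74 ± 0.68. In the other direction, 3 of 11 ligand genes rose, among them the interleukin gene Il12a (3.05 ± 0.49) and the interferon gene Ifna2 (0.77 ± 0.24). So did 1 of the type I response genes, 1 of the gamma targets and 1 of the T and NK markers. Without the arrays of low spread only AE9a+miR-126 replicate 3 is left at passage 4, so no counts are given for that setting. Markers that fell were 9 of 10 neutrophil genes (median -5.16), 6 of 11 monocyte and macrophage genes (median -2.18) and 6 of 12 T and NK genes. Summed neutrophil levels were 64.33 to 66.97 in AE9a+miR-126 and 109.54 to 114.37 in AE9a, and the part of these cells in the GTPase differences was not tested.

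Averaged over the passages, AE9a+miR-126 had 3 of the 7 genes lower than AE9a (Igtp -0.83 ± 0.26, Irgm2 -0.66 ± 0.22, Gbp7 -0.59 ± 0.21) and Gbp3 higher by 0.62 ± 0.17, beside 55.1% of all genes called. The count in this average was 1 when array SD entered the model, 2 after cyclic loess, and 1 without passage 3 or passage 4. Where it was 1, the gene left was Gbp3, which was higher, and Igtp, Irgm2 and Gbp7 all lost their calls. After cyclic loess Igtp and Gbp3 kept theirs. Without arrays of low spread, passages 2 and 4 of AE9a+miR-126 rest on replicate 3 alone, and no count is given. Set directly against the arm with added miR-126, the knockout arm had 4 of the 7 higher on average and 0 lower, beside 49.7% of all genes. These were Gbp7 (1.06 ± 0.21, adjusted p = 0.000174), Igtp (0.78 ± 0.26), Irgm2 (0.66 ± 0.22) and Gbp5 (0.65 ± 0.23). Gbp7 passed in every setting run. The count became 1 when array SD entered the model or without passage 3, and 2 after cyclic loess or without passage 1.

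Gbp5 also fell across passages in AE9a+miR-126. It measured 4.95, 4.32 and 4.39 at passage 4, against 6.93, 8.69 and 8.03 at passage 1, a difference of -3.34 ± 0.47 (10.1-fold, adjusted p = 4.94e-06), and it was the 1 gene of the 7 called, beside 24.3% of all genes. It passed in every setting run, with differences between -3.81 and -2.93. In this arm Gbp3 differed by 0.09 ± 0.34 and Igtp by -0.08 ± 0.53 between the same passages. The change of the arm's difference from AE9a between passages 1 and 4 was negative in all 7 genes and passed in 3, Gbp5 (-3.68 ± 0.66, adjusted p = 0.000713), Gbp7 (-2.36 ± 0.58, adjusted p = 0.0115) and Igtp (-2.76 ± 0.74, adjusted p = 0.0196), beside 10.5% of all genes. Without the arrays of low spread only replicate 3 of AE9a+miR-126 is left at passage 4, and no calls are given for that setting. The calls on Gbp7 and Igtp were lost when array SD entered the model, which left a count of 1. The count was 5 without AE9a passage 4 replicate 1.

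Against normal controls, Gbp5 had the largest rise of the 7 GTPases in all 3 leukaemias at passage 1, and it passed in 2. It measured 7.24, 8.01 and 7.25 in miR-126KO+AE9a, 6.93, 8.69 and 8.03 in AE9a+miR-126 and 5.62, 5.59 and 6.66 in AE9a, against 4.74, 4.80 and 5.16 in normal controls. All 9 leukaemia mice lay above all 3 controls. The difference was 2.60 ± 0.47 in miR-126KO+AE9a (adjusted p = 0.000267), 2.99 ± 0.47 in AE9a+miR-126 (adjusted p = 7.02e-05) and 1.05 ± 0.47 in AE9a (adjusted p = 0.163), and the calls in the knockout arm and the arm with added miR-126 held in every setting run. These comparisons share the 3 control arrays. Cell makeup differed from the controls as well. Of 10 neutrophil, 7 B cell and 12 T and NK markers, 7, 6 and 7 were lower in miR-126KO+AE9a at passage 1 than in normal controls, while 3 of 11 monocyte and macrophage markers were higher. In AE9a+miR-126 at passage 1, 6 of 7 B cell, 4 of 12 T and NK and 6 of 6 erythroid markers were lower than in controls, and in AE9a 4, 2 and 6 of the same lists. The part of these cells in the GTPase differences from controls was not tested.

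In the knockout arm at passage 1, 3 of the 7 genes were above normal controls and 0 below, beside 10.8% of all genes called: Gbp5, Irgm1 (1.60 ± 0.49, adjusted p = 0.0305) and Gbp7 (1.35 ± 0.41, adjusted p = 0.0307). Igtp (1.25 ± 0.53), Irgm2 (1.00 ± 0.44) and Gbp3 (0.99 ± 0.34) did not overlap with the controls and did not pass. The count was 1 without miR-126KO+AE9a replicate 1 or 2 or without control replicate 2 or 3, 6 in a fit of the 2 groups alone and 5 without arrays of low spread. In AE9a+miR-126, Gbp5 was the 1 gene called, beside 9.73% of all genes, with 3 called in a fit of the 2 groups alone and 2 without arrays of low spread. In AE9a, limma called 0 of the 7, beside 8.87% of all genes, with 2 below 0.05 unadjusted (Irgm2 at -1.09 ± 0.44 and Gbp5) and 2 called in a fit of the 2 groups alone.

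By passage 4, the knockout arm had 0 of the 7 called by limma against normal controls and 0 below 0.05 unadjusted, beside 5.68% of all genes, with differences between -0.70 and 0.47. AE9a+miR-126 had 1, Gbp3 (0.90 ± 0.34, adjusted p = 0.0427), beside 31.5% of all genes. The call on Gbp3 was lost without any one of the 6 arrays and in a fit of the 2 groups alone. AE9a had 1, Iigp1, beside 4.40% of all genes: it measured 5.43, 7.87 and 8.28 in AE9a, against 4.85, 4.18 and 4.88 in normal controls (2.56 ± 0.51, 5.89-fold, adjusted p = 0.00189). Igtp differed by 1.69 ± 0.53 (adjusted p = 0.0614) and Irgm1 by 1.37 ± 0.49. In a fit of the 2 groups alone the call on Iigp1 was lost (adjusted p = 0.0501), while Gbp5 was called. The count in AE9a was 4 without AE9a replicate 1, 3 without arrays of low spread and 2 after cyclic loess or with spread as a covariate. Cell makeup differed here too. Among markers that passed, Gzmb (3.60 ± 0.49), Cd3e (1.62 ± 0.41) and C1qb (2.53 ± 0.67) were higher in AE9a than in controls. Ncr1 (-1.48 ± 0.36), Cd22 (-2.49 ± 0.30) and Slc4a1 (-1.33 ± 0.28) were lower. Ifng was higher by 0.84 ± 0.21. The part of these cells in the difference of Iigp1 was not tested.

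The probe set shared by Gbp2 and Gbp2b was tested in a fit over all 27037 probe sets. Gbp2, whose protein takes part in killing vacuolar pathogens in the mouse, and Gbp2b cannot be told apart by it. It measured 8.69, 9.87 and 8.46 in miR-126KO+AE9a and 7.16, 7.46 and 7.79 in AE9a at passage 1 (1.53 ± 0.46, adjusted p = 0.0838), with no overlap. At passage 4 it measured 7.22, 7.33 and 7.69 in miR-126KO+AE9a, 6.14, 6.45 and 6.33 in AE9a+miR-126 and 8.37, 9.64 and 10.01 in AE9a, where it was lower in the knockout arm (-1.93 ± 0.46, adjusted p = 0.0275) and in the arm with added miR-126 (-3.03 ± 0.46, adjusted p = 2.31e-05). The change of the difference from AE9a between passages 1 and 4 was -3.46 ± 0.65 for the knockout arm (adjusted p = 0.00758) and -4.05 ± 0.65 for the arm with added miR-126 (adjusted p = 0.000265).

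The 7 genes followed each other to different degrees over the 13 group means, which share arrays, spread and cell makeup and are given as a description. Pearson's r between a gene and the mean of the other 6 was 0.89 for Igtp, 0.80 for Gbp7, 0.79 for Irgm1, 0.73 for Irgm2, 0.53 for Gbp5, 0.41 for Gbp3 and 0.36 for Iigp1. The closest pair was Igtp and Irgm2 (r = 0.90). The loosest were Gbp5 and Iigp1 (r = 0.02), which peak at opposite ends of the passages.

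Among 19386 other named genes, those most like the average of the 7 over the 13 group means were Rbm12b1 (r = 0.89), Tapbpl (r = 0.86), Ralgapa2 (r = 0.85), Ston2 (r = 0.84), Axl (r = 0.83) and Trafd1 (r = 0.83). Tapbpl edits peptides on class I molecules, Axl is a receptor tyrosine kinase and Trafd1 restrains innate immune signalling. Group means of Rbm12b1 spanned 3.64 to 4.11, a small range near the low end of the array, while those of Axl spanned 6.93 to 8.38 and those of Trafd1 8.57 to 9.82.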

How the data were processed

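Affymetrix mouse gene arrays of a single colour were used, 1 for each of 39 mice, on RNA of CD45.1-sorted marrow cells. The values used are the authors' deposited log2 values for 27037 probe sets, made with RMA and Partek 6.0 per the submitters' processing notes; no source used here gives further settings. By the platform annotation 23521 probe sets had a single symbol, 1814 had more and 1702 had none. For 1082 genes with several probe sets the highest mean decided, and 22180 genes remained.

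All arrays entered 1 limma 3.58.1 model (R 4.3.3) of 13 group means (26 residual degrees of freedom, empirical Bayes), from which 22 comparisons were taken. The p-values were adjusted by Benjamini-Hochberg across the 22180 genes, with a threshold of 0.05. A fit over all probe sets was added after seeing the data, for the probe set of Gbp2 and Gbp2b. The design counted 8 genes, of which 7 could be tested. Since no label ties a recipient to its donor, p-values reflect the spread between these mice only.

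The GTPases, the 15 other gene lists (160 of 178 listed symbols measured) and the tests were chosen with earlier results of these data known. The text names all GTPases, up to 4 genes of each list with the smallest adjusted p in a comparison (more where a short list is described whole, or where a gene named in another comparison is followed), and the 6 genes most alike in pattern, with predicted genes passed over in the last. Alternatives were a trended and robust variance prior, a fit restricted to the groups compared, a replicate block, the mean of a gene's probe sets, a filter on dim genes, cyclic loess, array spread as a covariate, and leaving out arrays of low spread, single arrays or single passages. The fit was tested on simulated data with known changes.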

Additional observations from a re-analysis of the deposited data

Results flagged for a closer look

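In 8 cases the difference between a leukaemia arm and AE9a itself differed between passages 4 and 1, by limma's test of that change (passage 4 difference minus passage 1 difference, on the log2 scale). For miR-126KO+AE9a these were Igtp (-4.32, adjusted p = 0.00321), Irgm1 (-3.25, adjusted p = 0.021), Irgm2 (-3.02, adjusted p = 0.0154) and the probe set of Gbp2 and Gbp2b (-3.46, adjusted p = 0.00758). For AE9a+miR-126 they were Gbp5 (-3.68, adjusted p = 0.000713), Gbp7 (-2.36, adjusted p = 0.0115), Igtp (-2.76, adjusted p = 0.0196) and the probe set of Gbp2 and Gbp2b (-4.05, adjusted p = 0.000265). Both arms were set against the same 6 AE9a arrays, so the 2 sets of values are not separate evidence.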

How the results depend on the processing

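No call on a single GTPase changed direction, and differences that did not pass were not checked for this. The 40 calls on single GTPases gave 766 values under other settings, of which 626 kept the call, 140 lost it and 0 turned; the cause was not tested where calls were lost. Counts of the 7 genes called are given here. The share of all genes called under each of these other settings is not given here or above. The counts therefore describe how far the calls depend on the setting, and not a trait of the GTPases. In a fit of the compared groups alone, against normal controls, they were 6 for miR-126KO+AE9a, 3 for AE9a+miR-126 and 2 for AE9a at passage 1, and 0 for AE9a+miR-126 at passage 4. That fit gave 0 for miR-126KO+AE9a against AE9a at passage 4, 1 on average and 5 for the change of that difference. It gave 1 and 2 for AE9a+miR-126 against AE9a at passages 3 and 4, 4 for miR-126KO+AE9a and 2 for AE9a between passages 4 and 1. Without arrays of low spread the counts against normal controls were 5 (miR-126KO+AE9a, passage 1), 2 (AE9a+miR-126, passage 1) and 3 (AE9a, passage 4). In the same setting they were 1 for miR-126KO+AE9a against AE9a at passage 3 and on average, and 5 between passages of miR-126KO+AE9a. Counts for AE9a+miR-126 after passage 1 are not given, since at most replicate 3 is left in a group. Cyclic loess gave 2 for AE9a at passage 4 against controls, 1 for the average of miR-126KO+AE9a, 1, 3 and 2 for AE9a+miR-126 at passages 3 and 4 and on average, 2 between those arms and 4 between passages of miR-126KO+AE9a. Array spread as a covariate gave 2, 1, 0, 2, 1 and 1 in the first 6 of these cases and 1 for the change of the AE9a+miR-126 difference. Without dim genes the counts were 1 (miR-126KO+AE9a against AE9a, passage 4), 1 (on average) and 4 (between passages), and the trended and robust prior gave 1 on average. Without passage 4 the averages gave 3 for miR-126KO+AE9a and 1 for AE9a+miR-126, which had 1 without passage 3 as well; between the arms 2 passed without passage 1 and 1 without passage 3.

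Leaving out single arrays gave 1 to 3, 1 to 1 and 0 to 0 at passage 1 and 0 to 0, 0 to 0 and 1 to 4 at passage 4 for miR-126KO+AE9a, AE9a+miR-126 and AE9a against controls. It gave 0 to 4, 0 to 1, 0 to 0 and 0 to 2 for miR-126KO+AE9a against AE9a at passages 1 to 4 and 0 to 1 on average, and 0 to 1, 0 to 1, 0 to 3 and 2 to 5 for AE9a+miR-126, with 4 to 5 on average. Between the arms it gave 3 to 5, between passages 1 to 2 (miR-126KO+AE9a), 1 to 1 (AE9a+miR-126) and 1 to 5 (AE9a), and for the changes of the differences 1 to 6 and 2 to 5. With the replicate number as a block, the AE9a count between passages was 3 (the call on Gbp7 was lost, with an adjusted p of 0.0529) and the change of the knockout difference kept a count of 3. Of other genes named here, the block ended the calls on Ifng in that change (adjusted p = 0.057) and on Psmb8 and Rtp4 in AE9a between passages (adjusted p = 0.0505 and 0.0608). It also ended the call on Vcam1 in miR-126KO+AE9a against AE9a at passage 4 (adjusted p = 0.0638). Same-numbered arrays did not deviate together (correlations of -0.67 to 0.63 over 234 pairs, 68 over 0.1), so the numbers are not treated as pairs. With 3 mice a group, Iigp1 below the median gene of 5.56, and no array for Gbp2 alone, small differences could not be resolved.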
